A study of Mus musculus with 6 samples.

Results

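The transcripts described here encode proteins that pass cytokine signals from follicular helper T cells into germinal centre B cells, and they were chosen by symbol. They are 6 receptor chains (Il4ra, Il21r, Il2rg, Il10ra, Il6ra and Il6st), 3 STAT transcription factors (Stat3, Stat6 and Stat5b) and 1 feedback inhibitor (Socs3), 10 of the 23420 genes listed. The libraries are messenger RNA of sorted germinal centre B cells from mouse spleen at day 10 after intraperitoneal immunization with NP-KLH, a hapten on a carrier protein. The KO group (3 libraries) had the genotype BASP1 fl/fl hCD20TamCre+/- and the WT group (3 libraries) BASP1 +/+ hCD20TamCre+/-, so both carried a tamoxifen-activated Cre driven in B cells, and both received 1 mg tamoxifen on day 5, day 7 and day 9. The sources used here give neither age nor strain. BASP1 is a membrane-attached protein that binds calmodulin and also acts as a transcriptional co-repressor.

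Interleukin-4 and interleukin-21 are the main cytokines of follicular helper T cells. Each binds a private receptor chain, IL-4Rα or IL-21R, paired with the common gamma chain encoded by Il2rg, and Janus kinases on the receptor then phosphorylate STAT proteins, which move to the nucleus. IL-4 acts mainly through STAT6, IL-21 mainly through STAT3 with a part for STAT5, and IL-6 and IL-10 also act through STAT3, while SOCS proteins are made in response and block the receptor complex. In germinal centres these signals support expansion, class switching and plasma cell formation.

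Transcripts of the private interleukin-4 and interleukin-21 receptor chains and of the 3 STATs differed between KO and WT by -0.13 to 0.07 on the log2 scale. Il21r differed by 0.01 and Il4ra by 0.03, and as ratios of KO to WT their 95% intervals ran from 0.912 to 1.11 and from 0.918 to 1.14. The largest differences were in transcripts near the low end of the scale: Il6ra was 0.70 lower and Socs3 0.68 higher in KO. None of the 10 passed 5% FDR (limma, adjusted over all 10133 genes tested), where 0.266% of all tested genes did. At an unadjusted p under 0.05 there were 2, Il6ra and Socs3, against 8.82% of all tested genes. Without replicate pair 2 there were 0, and fewer of all tested genes were past it as well (400 of 10133).

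Several of these genes are neighbours in the genome (GENCODE M21, GRCm38, the build called mm10). Il4ra (chromosome 7, 125552120 to 125579474) and Il21r (chromosome 7, 125603429 to 125633570) point the same way, 23954 bp apart with 0 annotated genes between them. On chromosome 11, Stat5b (100780731 to 100850724) is followed after 8626 bp by Stat5a (100859351 to 100885169), whose end overlaps that of Stat3 (100885098 to 100939540, opposite strand) by 72 bp. The strand setting used for counting is not stated in the labels or notes, so reads in that overlap cannot be assigned to one of them. Stat5a and Stat5b are near-identical paralogs, and how reads that fit both were counted is not stated either, so the values of both are uncertain. The remaining genes are Il2rg (chromosome X, 101264378 to 101268255), Il10ra (chromosome 9, 45253837 to 45269149), Il6ra (chromosome 3, 89864059 to 89913196), Il6st (chromosome 13, 112464070 to 112510086), Stat6 (chromosome 10, 127642986 to 127660957) and Socs3 (chromosome 11, 117966079 to 117970047).

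Promoter windows of 9 of the 10 members were matched by symbol in RefSeq (GRCm38.p6), each from 250 bases before to 50 bases after a RefSeq start; Il10ra was not matched. Stat5b has 2 such windows, so 10 were searched. The RefSeq start lies inside the GENCODE gene given above by 681 bases for Socs3, by 151 for Il4ra, and by 143 and 28154 for the 2 starts of Stat5b, and is the same base for the others. The search was for the STAT-binding pattern TTCNNNGAA and for TTCNNNNGAA, the longer spacing that STAT6 prefers. Both patterns read the same on either strand and cannot match at the same bases. Of the 9 members 1, Socs3, held TTCNNNGAA, and 0 held TTCNNNNGAA. Among all 32851 windows of the same length, 8.30% held the first and 6.95% the second. Counted by gene, as for the members, 9.55% and 8.01% of 27025 genes did. The Socs3 match begins 154 bases and ends 146 bases before the RefSeq start at 117969366 (chromosome 11, 117969512 to 117969520, minus strand), and so lies inside the longer GENCODE gene. The windows of Socs3 and Il6ra are shown because these were the members with the largest differences, in opposite directions. Capitals mark the match, and the Il6ra window, with none, is all in lower case.
Socs3 (chr11:117969317-117969616, minus strand): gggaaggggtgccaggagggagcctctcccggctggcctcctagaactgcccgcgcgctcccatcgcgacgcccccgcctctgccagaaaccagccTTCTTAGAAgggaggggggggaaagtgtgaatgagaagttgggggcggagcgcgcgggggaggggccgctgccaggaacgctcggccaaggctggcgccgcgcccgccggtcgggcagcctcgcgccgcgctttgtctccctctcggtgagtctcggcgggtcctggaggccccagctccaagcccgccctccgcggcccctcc
Il6ra (chr3:89913147-89913446, minus strand): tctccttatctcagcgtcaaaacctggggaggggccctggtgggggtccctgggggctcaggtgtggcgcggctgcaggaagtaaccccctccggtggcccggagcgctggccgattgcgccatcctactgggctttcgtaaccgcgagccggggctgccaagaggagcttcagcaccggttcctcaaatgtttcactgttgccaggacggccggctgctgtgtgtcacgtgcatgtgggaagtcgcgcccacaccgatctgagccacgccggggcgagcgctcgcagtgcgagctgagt
Both windows are rich in G and C (73.3% and 66.0%), with 31 and 25 CG dinucleotides.

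The deposited values are log2 CPM that the authors had already scaled, so no depth per library can be given. They also lack any difference between replicate numbers: for each gene the WT and KO values of one number have the same sum, to within 0.001. In each pair a high WT value therefore comes with a low KO value by construction, and the 2 groups fail to overlap exactly when all 3 pairs go one way. Below, a difference is KO minus WT in log2 CPM, with the SD over the 3 pairs, and intervals are 95% limma intervals. These take most of a gene's spread from other genes of like level (a median of 81.2 prior against 2 residual degrees of freedom). In the alternative fits without pair 1, without pair 2 or with no filter on low values, the median prior was infinite. For many genes the gene's own spread thus did not count there, so adjusted p-values from these fits need caution. Whether each library came from its own mouse is not in the labels, and p-values measure only the spread between these libraries.

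Basp1, the targeted gene, was at 5.49, 5.90 and 5.53 log2 CPM in WT and at 3.27, 2.86 and 3.23 in KO, a difference of -2.51 ± 0.45 (SD, n = 3 pairs; limma adjusted p = 3.3e-16). All 11 B cell and germinal centre markers looked at, among them Ms4a1, Bcl6, Fas and S1pr2, lay at 4.17 log2 CPM or more in each library. Their summed level ranged from 10050 to 10230 CPM in WT and from 9708 to 9866 CPM in KO, with median paired differences of -0.11, -0.08 and -0.03, and its part in the differences below was not tested. Of 9 T cell markers 7 were under 1 CPM in every library, with Cd3e at -5.063 in all 6, the most common value of the files, and the cytokine genes Il4 and Il21 were at that value throughout. In bulk RNA, fewer cells of a type and less RNA per cell cannot be told apart.

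Scaled by the length of all annotated exons, WT levels spanned from 134 CPM per kb for Il2rg to 0.326 for Il6st. Il21r followed Il2rg at 99.1 CPM per kb, then Il4ra at 39.7, Stat6 at 34.6, Stat5b at 28.3 and Stat3 at 22.9. Il10ra stood apart below them at 5.94 CPM per kb. Socs3 (0.548), Il6ra (0.372) and Il6st (0.326) were lowest. The WT library ranges of neighbours in this order did not overlap down to Il10ra, while Il6ra (0.333 to 0.460) lay within the range of Socs3 (0.394 to 0.795) in part and met that of Il6st at its lower end. The chains of the interleukin-4 and interleukin-21 receptors were thus far above both chains of the interleukin-6 receptor. In KO, Il6ra (0.229) lay below Il6st (0.367) on this scale. The order depends in part on the length used: by the main coding transcript alone, Stat3 came above Il4ra in WT (48.4 against 45.3 CPM per kb), and Il6ra stayed above Il6st in KO (0.593 against 0.470).

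**Figure D1:**
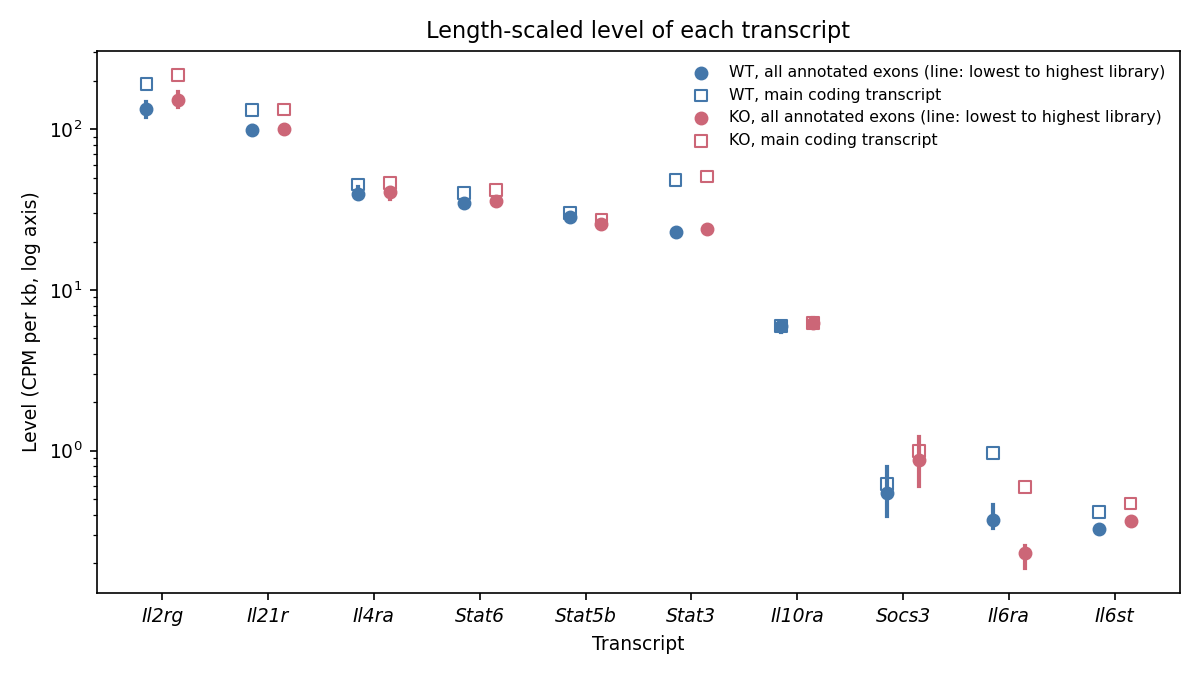
Level of the 10 transcripts in CPM per kb on a log axis, in WT (blue) and KO (red), with filled points for the group's geometric mean over all annotated exons, lines from the lowest to the highest of 3 libraries, and open squares for the length of the main coding transcript. Il2rg and Il21r were highest, and Socs3, Il6ra and Il6st lay under 1.3 CPM per kb in every library over all annotated exons.

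Il4ra, the chain that binds interleukin-4, was at 8.04, 7.83 and 7.82 log2 CPM in WT libraries 1 to 3 and at 7.785, 7.995 and 8.004 in KO. The groups overlapped, with WT 1 the highest library and KO 1 the lowest. The difference was 0.03 ± 0.25 (SD, n = 3 pairs; interval -0.12 to 0.19, limma adjusted p = 0.953). Expressed as a ratio, KO stood at 1.02 of WT, with an interval from 0.918 to 1.14. The SD was above that of most genes at this level, with 96.6% of the 500 nearest in mean having an equal or smaller one, since pair 1 (-0.25) went against pairs 2 (0.17) and 3 (0.18).

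Il21r, the private chain for interleukin-21, was at 8.43, 8.37 and 8.30 log2 CPM in WT and at 8.30, 8.37 and 8.44 in KO. Both groups covered nearly the same range. The difference was 0.01 ± 0.14 (SD, n = 3 pairs; interval -0.13 to 0.15, limma adjusted p = 0.992), which as a ratio is 1.00, with an interval from 0.912 to 1.11. Like its neighbour Il4ra, it was lower in KO in pair 1 (-0.13) and higher in pair 3 (0.15). Over the 3 paired differences, the tested genes nearest to Il21r by Euclidean distance were Ncoa3 (0.00949) and Psd4 (0.0168), and 235 of 10132 lay within 0.1. Those nearest to Il4ra were Ccdc93 (0.0247), Kdm1b (0.0326) and Atf7ip (0.0330), with 47 within 0.1.

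Il2rg, the gamma chain shared by the receptors for interleukin-4, interleukin-21 and other cytokines, was at 8.34, 8.15 and 8.47 log2 CPM in WT and at 8.47, 8.66 and 8.35 in KO. The groups overlapped, and pair 2 held the lowest WT and the highest KO library. The difference was 0.17 ± 0.31 (SD, n = 3 pairs; interval -0.03 to 0.38, limma adjusted p = 0.678). Its SD was high for its level, above that of 97.8% of the 500 genes nearest in mean or equal to it. Without pair 2 the difference was 0.01, and without pair 3 it was 0.32.

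Il10ra, the ligand-binding chain of the interleukin-10 receptor, was at 4.44, 4.27 and 4.43 log2 CPM in WT and at 4.38, 4.55 and 4.39 in KO. Pair 2 alone was higher in KO, and the groups overlapped. The difference was 0.06 ± 0.19 (SD, n = 3 pairs; interval -0.17 to 0.30, limma adjusted p = 0.942).

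Il6ra, which binds interleukin-6, was at 1.52, 1.99 and 1.55 log2 CPM in WT and at 1.15, 0.68 and 1.13 in KO. All 3 KO libraries lay below all 3 WT libraries, with the widest gap in pair 2. As geometric means, 3.22 CPM in WT stood against 1.98 CPM in KO. The difference was -0.70 ± 0.53 (SD, n = 3 pairs; interval -1.22 to -0.17), and it did not pass over all genes (limma adjusted p = 0.323). Without pair 2 it was -0.39, and the adjusted p was 1. Myeloid cells, which also express Il6ra, were looked at through 8 markers, of which 7 were under 1 CPM in every library. Their summed level ranged from 3.09 to 4.87 CPM in WT and from 1.90 to 3.00 CPM in KO, so it was lower in KO as well. Most of it was Lyz2 (geometric mean of 2.71 CPM in WT and 1.71 in KO), while Csf1r was higher in KO (0.30 in WT and 0.40 in KO). The part of myeloid RNA in the difference was not tested. The sum of the 9 T cell markers ranged from 189 to 202 CPM in WT and from 222 to 236 CPM in KO, but nearly all of it was Lck. By group mean, Cd3d, Cd4, Cd8a and Tcf7 were lower in KO, Cd3g, Cd28 and Il7r higher, and Cd3e equal, all of them low. The part of T cell RNA was not tested either.

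Il6st encodes gp130, the signalling chain of the interleukin-6 receptor family. It was at 1.87, 1.88 and 1.82 log2 CPM in WT and at 2.02, 2.00 and 2.07 in KO, so all KO libraries lay above all WT libraries, by little. The difference was 0.17 ± 0.07 (SD, n = 3 pairs), while its interval ran from -0.27 to 0.61 (limma adjusted p = 0.895). That interval is wider than the 3 pairs alone would give, because genes at this level had a median SD of 0.309, and 2.2% of the 500 nearest had an SD as small as that of Il6st. The 2 chains of the interleukin-6 receptor thus went opposite ways in all 3 pairs, and neither passed.

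**Figure D2:**
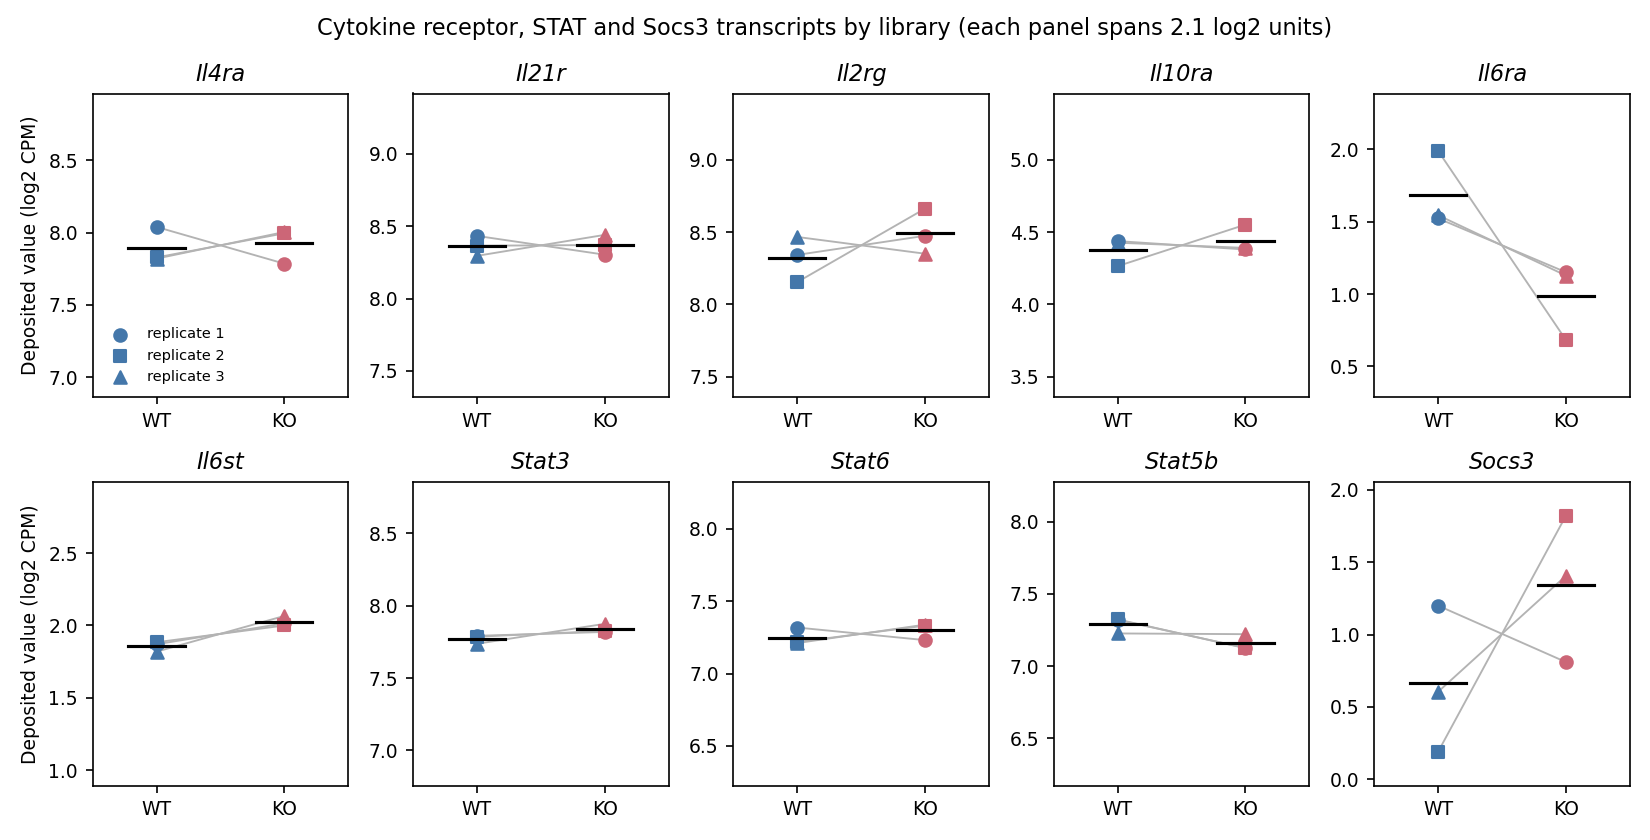
Deposited log2 CPM of each transcript in the 3 WT (blue) and 3 KO (red) libraries, with grey lines joining libraries of one replicate number and black bars at group means. Each panel spans the same height of 2.1 log2 units, and the lines mirror each other because pair sums are equal in the deposited values. Il6ra and Socs3 vary most, and Il6ra, Il6st, Stat3 and Stat5b are the panels in which the groups do not overlap.

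Stat3, the main STAT of interleukin-21, interleukin-6 and interleukin-10, was at 7.79, 7.79 and 7.74 log2 CPM in WT and at 7.82, 7.83 and 7.88 in KO. Every KO library lay above every WT library, with paired differences of 0.03, 0.04 and 0.14. The difference was 0.07 ± 0.06 (SD, n = 3 pairs; interval -0.08 to 0.21, limma adjusted p = 0.868). As a ratio, KO stood at 1.05 of WT, with an interval from 0.948 to 1.16.

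Stat6, the STAT of interleukin-4, was at 7.32, 7.22 and 7.21 log2 CPM in WT and at 7.23, 7.33 and 7.34 in KO. The groups overlapped, with pair 1 against pairs 2 and 3. The difference was 0.05 ± 0.12 (SD, n = 3 pairs; interval -0.10 to 0.21, limma adjusted p = 0.918). Its paired differences (-0.09, 0.11 and 0.13) had the same order of signs as those of Il4ra, and so did those of Il21r and Socs3. For Il21r pair 2 was only 0.005, and how many of all tested genes share this order was not counted.

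Stat5b, activated by cytokines of the common gamma chain, was at 7.32, 7.32 and 7.23 log2 CPM in WT and at 7.13, 7.12 and 7.22 in KO. KO was lower in all 3 pairs, though in pair 3 by 0.005. The difference was -0.13 ± 0.11 (SD, n = 3 pairs; interval -0.29 to 0.02, limma adjusted p = 0.680). Its paralog Stat5a was at 5.34, 5.42 and 5.25 log2 CPM in WT and at 5.25, 5.17 and 5.34 in KO, a difference of -0.08 ± 0.17 (limma adjusted p = 0.886) with pair 3 the other way.

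Socs3, which blocks signalling at gp130 and is itself induced by STAT3, was at 1.20, 0.19 and 0.60 log2 CPM in WT and at 0.81, 1.82 and 1.41 in KO. WT 1 lay above KO 1, so the groups overlapped, while pairs 2 and 3 were higher in KO. The geometric mean was 1.58 CPM in WT and 2.54 CPM in KO. The difference was 0.68 ± 1.02 (SD, n = 3 pairs; interval 0.06 to 1.30, limma adjusted p = 0.478), with an SD above or equal to that of 94.8% of the 500 genes nearest in mean. It was 0.21 without pair 2 and 1.22 without pair 1, where the adjusted p was 0.0719, so its size rested on which pairs were counted.

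**Figure D3:**
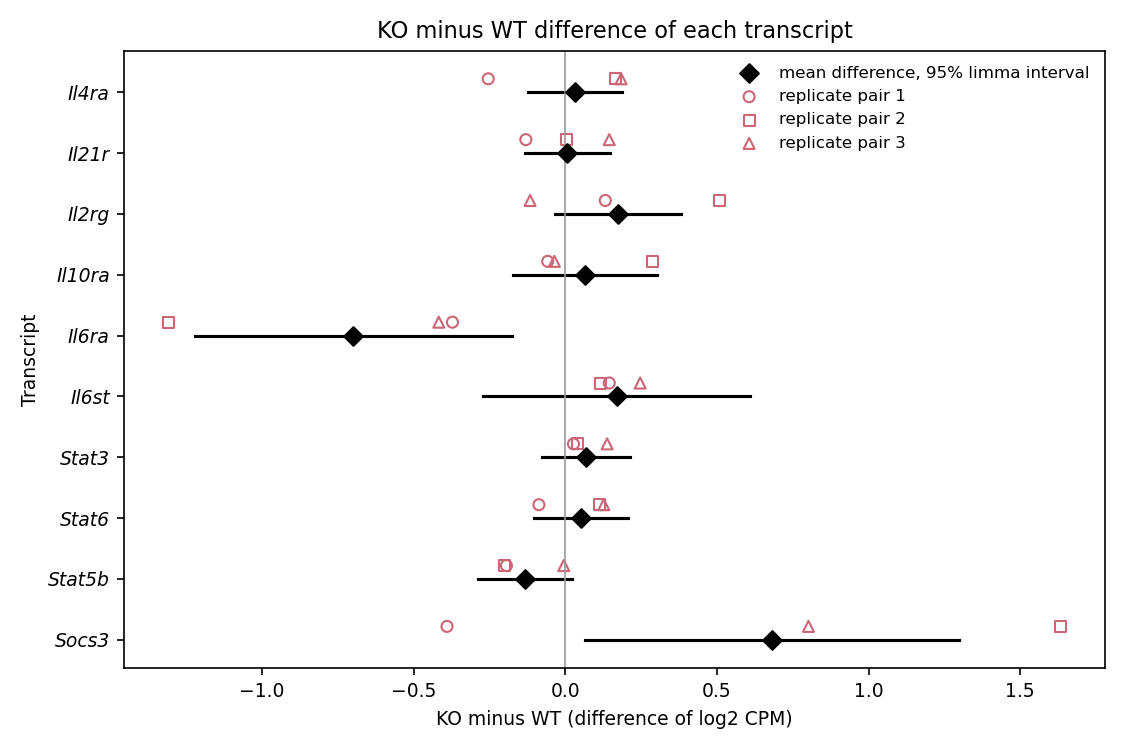
KO minus WT difference in log2 CPM of each transcript, with the mean and its 95% limma interval in black and the 3 replicate pairs as open red symbols above it. The intervals of Il6ra and Socs3 alone leave out 0, and neither passed after adjustment over all genes tested.

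Across the 10 members, 8 differences were positive and 2 negative, with a median of 0.06, while over all 10133 tested genes 5201 were positive and 4932 negative, with a median of 0.004. By pair the median of the members was -0.11, 0.11 and 0.13, so pair 1 went against the others. In 4 of the 10 all 3 pairs went one way, where 27.7% of all tested genes did. Of these, 2 were higher in KO (Il6st and Stat3, against 15.2% of all tested genes) and 2 lower (Il6ra and Stat5b, against 12.5%). The central 95% of all tested genes ran from -0.38 to 0.36, and Il6ra and Socs3 lay outside it.

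Pair 2, which set much of the size for Il2rg, Il10ra, Il6ra and Socs3, also stood apart in other genes. There, 5 measured naive B cell markers had a median difference of 0.60, against -0.28 in pair 1 and -0.26 in pair 3, and 3 measured nuclear RNAs, with Malat1 among them, one of -1.11, against -0.50 and 0.38. In summed CPM the naive B cell markers ranged from 293 to 373 in WT and from 311 to 396 in KO, and the nuclear RNAs from 355 to 624 in WT and from 264 to 464 in KO. Their part in the differences was not tested.

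The wider pathway was read through a list of 44 further receptor, kinase, STAT and inhibitor genes, of which 36 had a mean of at least 1 CPM and were tested. None passed 5% FDR in limma in either direction. At an unadjusted p under 0.05, 6 of the 36 were higher and 1 lower, where 8.82% of all tested genes were past it (422 higher and 472 lower of 10133). In all, 22 were positive and 14 negative, with a median of 0.03. Jak1, the kinase bound to IL-4Rα, IL-21R and gp130, was among the most abundant at 9.00 log2 CPM and differed by -0.07 ± 0.10 (SD, n = 3 pairs; limma adjusted p = 0.837). Jak3, the kinase bound to the common gamma chain, differed by 0.13 ± 0.16 (limma adjusted p = 0.711).

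By p-value the first of this list was Socs5, a SOCS family member, at 0.28, 0.35 and 0.62 log2 CPM in WT and at 1.47, 1.40 and 1.12 in KO. All KO libraries lay above all WT libraries, a difference of 0.91 ± 0.36 (SD, n = 3 pairs; limma adjusted p = 0.217). Jak2, which works with the interferon-gamma receptor among others, differed by -0.38 ± 0.48 (limma adjusted p = 0.333), with pair 1 the other way. Without pair 1 Jak2 passed (-0.62, adjusted p = 0.00961), and without pair 2 it was at -0.14 (adjusted p = 1). Ifngr2, a chain of that receptor, differed by 0.23 ± 0.37, Il2rb, a receptor chain for interleukin-2 and interleukin-15, by 0.47 ± 0.31, and Il27ra, the interleukin-27 receptor chain, by 0.49 ± 0.62, with limma adjusted p-values from 0.501 to 0.536. Without pair 2, Ifngr2 was at 0.03 and Il27ra at 0.14. The 8 genes that were too low to test included the STAT5-induced inhibitors Cish (mean of -3.71 log2 CPM) and Socs2 (-2.36).

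Genes listed as targets of these signals gave no further call. Of 12 interleukin-4 and STAT6 targets 9 were tested, of 14 interleukin-21 and STAT3 targets 12, and of 10 STAT5 targets 7, and none passed 5% FDR in limma. At an unadjusted p under 0.05 there were 1, 4 and 0, all higher in KO, where 8.82% of all tested genes were past it (422 of 10133 higher in KO), and the median differences were 0.04, 0.09 and 0.07. The lists share members, such as Bcl2l1, so their counts are not independent.

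Among the STAT6 targets, Socs1, an inhibitor of Janus kinases, differed by 0.22 ± 0.34 (SD, n = 3 pairs; limma adjusted p = 0.538), Bcl2l1, a survival gene, by 0.13 ± 0.30 (0.815) and Ccr7, a chemokine receptor, by 0.40 ± 1.16 (0.816). In Bcl2l1 and Ccr7 only pair 2 was higher in KO, and without it Socs1 was at 0.02. Among the STAT3 targets, the plasma cell regulator Irf4 was at 3.36, 3.37 and 3.59 log2 CPM in WT and at 4.06, 4.05 and 3.83 in KO, with no overlap, and came nearest to passing (0.54 ± 0.26, limma adjusted p = 0.0636). Prdm1, which encodes the plasma cell factor BLIMP-1, differed by 0.93 ± 0.56 (limma adjusted p = 0.256), and Bcl3, an NF-kB cofactor, by 0.37 ± 0.39 (0.317). Bcl3 passed without pair 1 (0.50, adjusted p = 0.00327) and was at 0.15 without pair 2 (adjusted p = 1). Irf4 passed without pair 3 (0.69, adjusted p = 0.0349) but not without pair 1 (0.46, adjusted p = 0.294) or pair 2 (0.47, adjusted p = 0.638). Irf4 and Prdm1 are also among 5 plasma cell markers. The 4 of these with a mean of at least 1 CPM, Irf4 and Prdm1 included, had median paired differences of 0.38, 0.45 and 0.13. The summed level of all 5, most of it Igj, ranged from 2104 to 2315 CPM in WT and from 1973 to 2159 CPM in KO. The part of plasma cell RNA in the differences was not tested.

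For the STAT5 list the genes of smallest p were the cyclin gene Ccnd2, with 0.53 ± 0.65 (SD, n = 3 pairs; limma adjusted p = 0.696), the kinase gene Pim1, with -0.22 ± 0.09 (0.711), and the survival gene Bcl2, with 0.39 ± 0.56 (0.746). Ccnd2 passed without pair 3 (0.86, adjusted p = 0.00536), the pair in which it was lower in KO, and was at 0.22 without pair 2 (adjusted p = 1). Bcl2 was at 0.07 without pair 2. Pim1 was lower in KO in all 3 pairs.

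**Figure D4:**
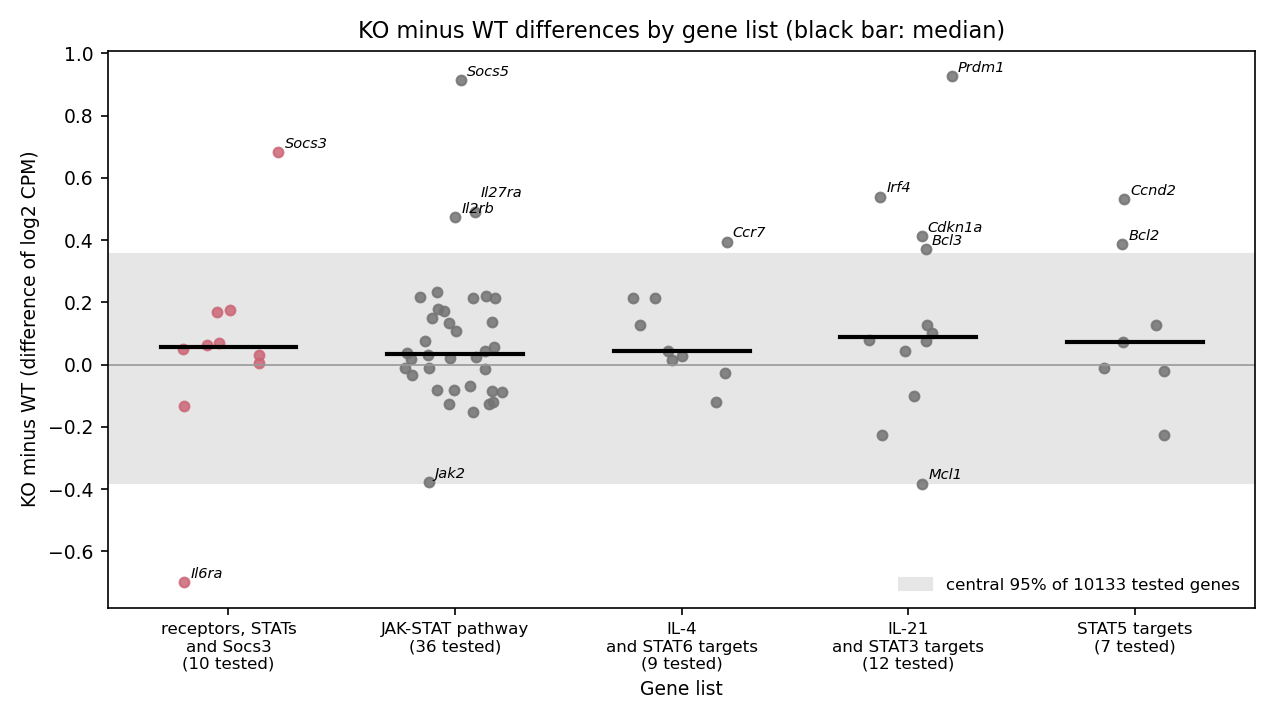
KO minus WT difference in log2 CPM of each tested gene in the member list (red) and in 4 lists of the pathway and its targets (grey), with a black bar at each median and a grey band over the central 95% of all tested genes, from -0.38 to 0.36. List medians lie between 0.03 and 0.09, and genes beyond 0.36 in size are named.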

How the data were processed

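The submitters' processing notes name limma, featureCounts with Subread 2.0.1, the aligner STAR 2.6.1a, Trim Galore 0.6.5 and FastQC 0.11.7, and the build mm10, without settings or order. The deposited numbers are log2 CPM per gene and library, as worked out from the values (linear sums between 997617 and 1000513). Over all libraries their highest value was 13.94, and they carry no difference between replicate numbers. Equal pair sums fix the correlation between libraries of one number, and no check of whether same-numbered samples deviate together was possible.

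KO was compared with WT in limma 3.58.1 (R 4.3.3): genotype plus replicate number as a block, variance trend, robust moderation, two-sided, Benjamini-Hochberg over all tested genes. Tested were the 10133 genes whose mean over libraries was 1 CPM or more and whose values were not all equal. The block was kept because the replicate effect was already removed. The code was tested on simulated data.

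Named were the 10 members, Basp1, of the pathway list the 6 genes of smallest p with Jak1, Jak3 and Stat5a, the 3 of smallest p per target list, and the 3 nearest to Il4ra and Il21r; some genes that this rule names are left out of the text. Members and lists were chosen with earlier results of these data known. Alternatives were no block, no trend, non-robust moderation, other filters on low values, log2(CPM + 1), median centring and each replicate pair left out.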

Additional observations from a re-analysis of the deposited data

How the results depend on the processing

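None of the 10 members passed 5% FDR in limma under any of the alternatives tried, and the smallest adjusted p of a member was 0.0719 (Socs3, without replicate 1). The count of all genes past 5% FDR, 27, was 142 without the replicate block, 0 without the variance trend, 12 with non-robust moderation and 95 with no filter on low values. It ranged from 11 to 136 with one replicate pair left out. The block concerns a pairing by number that the deposited values already have built in, and without it Socs5 (0.91, adjusted p = 0.0482) also passed. The median difference of the members ranged from 0.01 to 0.12 with one pair left out. In the same fits, Il4ra ranged from -0.0435 to 0.176, Il21r from -0.0625 to 0.075, Il10ra from -0.047 to 0.126, Bcl2l1 from -0.047 to 0.219 and Ccr7 from -0.27 to 0.77, so these changed sign. The cause was not tested. With no filter on low values Irf4, Bcl3 and Ccnd2 passed (adjusted p = 0.0398, 0.0175 and 0.0143), and without the variance trend Basp1 did not (adjusted p = 0.150). Of 97 member values under alternatives 93 kept their sign and 4 did not. A mean of at least 4 CPM left out Il6ra, Il6st and Socs3. Depth per library is unknown. On the log2(CPM + 1) scale, where the added 1 CPM shrinks differences of low genes, Il6ra differed by -0.50 and Socs3 by 0.45.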
